A study of Mus musculus with 36 samples.

Results

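The chromatin of mouse cortical neurons after 10 h in BDNF was set directly against that after 1 h in BDNF, to see which peaks of open chromatin close again and which open further. Both times were measured by ATAC-seq, in which a transposase cuts accessible DNA and the reads that fall into each peak are counted. The comparison rests on 4 libraries, 2 of BDNF 1 h and 2 of BDNF 10 h, chosen by their labels out of 18 ATAC-seq libraries and 36 samples in all. Neurons were taken from CD-1 embryos at embryonic day 15 and cultured for 7 days. Every group shared a first silencing for 2 h with 100 µM AP-5, which blocks NMDA receptors, and 1 µM TTX, which blocks sodium channels. BDNF was then given at 10 ng/ml for 1, 6 or 10 h, and KCl, which depolarises the membrane, at 55 mM for the same times. The 6 control libraries came from neurons left in both blockers for 3, 8 or 12 h in total, with no stimulus. Tissue of all embryos was dissociated together, so the 2 libraries of a group are cultures of pooled animals and the p-values measure the spread between such libraries. The number of reads in peaks was 3823920 and 4912237 in the 1 h libraries and 2023008 and 2777346 in the 10 h libraries, against 1241829 to 6236439 over all 18 libraries. On the log2 scale the 2 libraries correlated across peaks with r = 0.929 at BDNF 1 h and 0.872 at BDNF 10 h, which is a description across peaks and not across samples. The letters A and B name the ATAC-seq libraries of a group by column order and pair nothing. The cultures were of mixed cell types, and glial markers were present in the RNA.

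BDNF is a secreted neurotrophin that binds the TrkB receptor (Ntrk2) and signals through the MAP kinase pathway. Its first wave of transcription makes immediate early factors, among them the Fos and Jun proteins, which join as AP-1 and bind the letters TGANTCA, and the Egr zinc-finger proteins. AP-1 is known for opening chromatin at enhancers in stimulated neurons, and the phosphatases, Sprouty and Spred proteins made in the same wave act as negative feedback on the receptor's signal.

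The sequences of 6 peaks that the results turn on are given first, as the central 300 bases or the whole peak where it is shorter. Capitals mark every match, on either strand, to one of 14 motifs that were searched and are spelled out with their shares further on. A proneural E-box can overlap an AP-1 match by its last letters. The 3 peaks near Spred2, Nptx2 and Egr3 closed again, the peak near Itln1 was the 1 that opened further, the peak near Arhgef26 opened late and the peak near Calcr reopened. Letters are the plus strand of mm10, read from the RefSeq genome of that build.

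Spred2 peak, chr11:19979319-19979618: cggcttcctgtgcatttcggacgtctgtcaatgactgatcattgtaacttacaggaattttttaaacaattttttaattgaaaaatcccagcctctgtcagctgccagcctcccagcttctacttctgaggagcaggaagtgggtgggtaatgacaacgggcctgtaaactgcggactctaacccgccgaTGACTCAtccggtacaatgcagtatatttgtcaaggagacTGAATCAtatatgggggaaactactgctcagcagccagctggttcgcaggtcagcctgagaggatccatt

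Nptx2 peak, chr5:144543044-144543324: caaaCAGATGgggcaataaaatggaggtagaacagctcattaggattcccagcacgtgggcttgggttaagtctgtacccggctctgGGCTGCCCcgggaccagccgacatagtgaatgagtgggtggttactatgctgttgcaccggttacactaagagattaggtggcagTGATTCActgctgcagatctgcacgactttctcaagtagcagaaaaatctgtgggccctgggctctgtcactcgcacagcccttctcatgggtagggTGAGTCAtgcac

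Egr3 peak, chr14:70075007-70075306: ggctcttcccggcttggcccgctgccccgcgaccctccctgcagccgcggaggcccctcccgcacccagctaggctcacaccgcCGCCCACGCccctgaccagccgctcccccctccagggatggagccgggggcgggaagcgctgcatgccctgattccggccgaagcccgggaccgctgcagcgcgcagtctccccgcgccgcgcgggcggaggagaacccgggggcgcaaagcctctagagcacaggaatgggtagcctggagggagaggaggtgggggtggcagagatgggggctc

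Itln1 peak, chr1:171540469-171540768: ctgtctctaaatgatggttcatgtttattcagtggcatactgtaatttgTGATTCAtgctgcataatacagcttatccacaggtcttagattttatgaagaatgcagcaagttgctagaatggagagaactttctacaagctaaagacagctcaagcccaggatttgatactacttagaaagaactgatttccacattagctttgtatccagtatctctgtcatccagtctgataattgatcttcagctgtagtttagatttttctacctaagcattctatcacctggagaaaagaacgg

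Arhgef26 peak, chr3:62282339-62282638: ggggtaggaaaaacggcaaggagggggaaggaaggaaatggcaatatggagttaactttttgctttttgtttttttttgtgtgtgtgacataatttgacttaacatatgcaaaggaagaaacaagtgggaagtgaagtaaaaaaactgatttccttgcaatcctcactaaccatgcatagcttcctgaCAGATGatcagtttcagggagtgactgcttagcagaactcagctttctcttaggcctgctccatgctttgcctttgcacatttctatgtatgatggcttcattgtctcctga

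Calcr peak, chr6:3861041-3861340: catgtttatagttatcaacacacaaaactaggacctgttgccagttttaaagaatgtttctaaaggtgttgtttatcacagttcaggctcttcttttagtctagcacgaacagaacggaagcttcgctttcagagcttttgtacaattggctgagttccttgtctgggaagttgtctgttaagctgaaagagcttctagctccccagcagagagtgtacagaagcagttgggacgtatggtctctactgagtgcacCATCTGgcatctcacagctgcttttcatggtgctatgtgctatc

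The Spred2 sequence held 2 AP-1 matches and the Nptx2 sequence held 2, besides 1 proneural E-box and 1 HIC1 match. The Itln1 sequence held 1 AP-1 match. The Egr3 sequence held no AP-1 match but 1 EGR match, and the Arhgef26 and Calcr sequences held 1 proneural E-box each.

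More peaks went down than up between 1 h and 10 h in BDNF. Of 56383 peaks tested, 367 were lower at BDNF 10 h (0.651%) and 151 were higher (0.268%), by edgeR's quasi-likelihood test on LOESS-scaled counts at an adjusted p below 0.1. At 1 h, 7040 peaks (12.5%) had been gained, meaning that they were higher than the pooled controls, and 2694 (4.78%) were closing, meaning that they were lower. Set against that, 314 peaks closed again, that is, they were gained at 1 h and lower at 10 h than at 1 h, which is 4.46% of the gained peaks. Only 1 peak opened further. A further 53 peaks fell late, from a level at 1 h that did not pass the test against controls. Among the peaks that rose, 112 were reopening after having been lower than the controls at 1 h, and 38 opened late, from a level that did not pass the test at 1 h. In all 518 of these peaks the 2 BDNF 10 h libraries lay on one side of the 2 BDNF 1 h libraries. Over all peaks tested, 23.4% had both 10 h libraries below both 1 h libraries and 18.6% had both above. The classes use the BDNF 1 h libraries in both comparisons, so their sizes are a description.

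**Figure D1:**
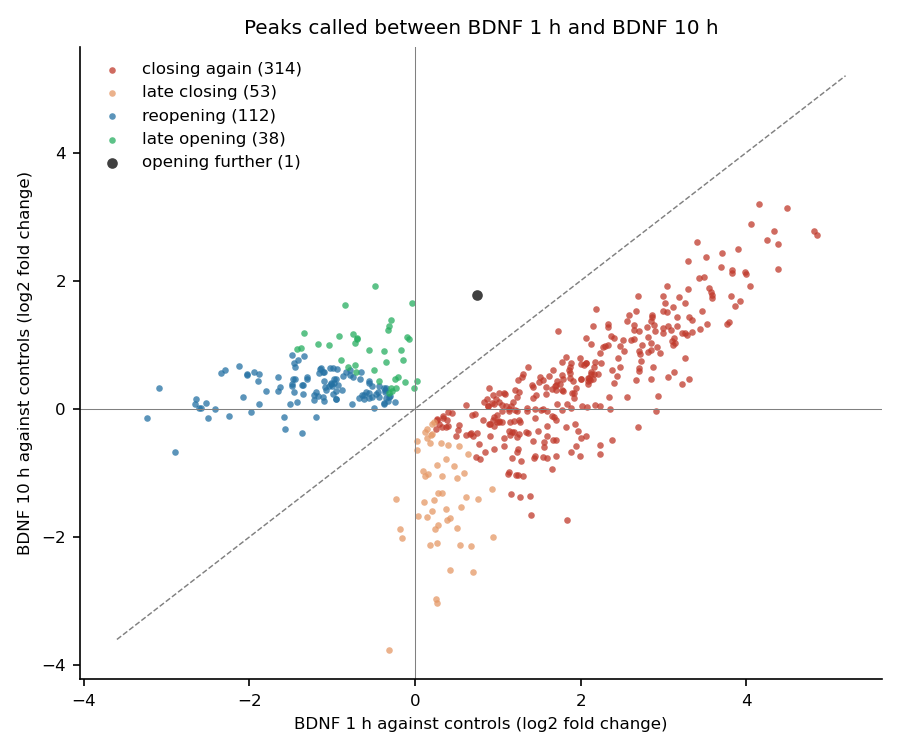
Each point is 1 of the 518 peaks called between BDNF 1 h and BDNF 10 h. The horizontal axis gives its log2 fold change at BDNF 1 h against the 6 controls, the vertical axis that at BDNF 10 h, colours mark the classes and the dashed line marks equal change at both times. The 314 peaks closing again lie right of 0 and below the line, and the 112 reopening peaks lie left of 0 and near the control level at 10 h.

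The counts depend strongly on having both libraries of each time. Without BDNF 10 h library A, which had the fewest reads of the 4, 31 peaks were lower and 10 higher. Without BDNF 10 h library B the counts were 152 and 100, without BDNF 1 h library A 66 and 18, and without BDNF 1 h library B 50 and 14. A peak that was not called is therefore not shown to have kept its level.

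A set of peaks chosen without the 4 libraries showed the same direction. At BDNF 6 h, 5007 peaks (8.88%) were gained, and of these 179 were lower at 10 h than at 1 h and 4 were higher, which is 3.57% and 0.0799% against the 0.651% and 0.268% of all peaks. Their median log2 fold change from 1 h to 10 h was -0.36, against -0.03 over all peaks, and it was negative in 73.8% of them against 52.6% of all. Both 10 h libraries lay below both 1 h libraries in 46.7% of these peaks. The same was seen in peaks gained under KCl, a call made without the BDNF libraries but among peaks kept by the same filter. Of 2985 peaks gained at KCl 1 h (5.29% of all), 70 were lower and 3 higher at BDNF 10 h than at BDNF 1 h, and of 3333 gained at KCl 10 h (5.91%), 85 were lower and 7 higher. For peaks gained at BDNF 1 h the median change was -0.48. When 1 of the 1 h libraries called the gained peaks and the other measured the change, it was -0.48 and -0.43.

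Peaks that were closing at 6 h leaned the other way, by little. Of 984 peaks lower than controls at BDNF 6 h (1.75%), 1 was called higher at 10 h than at 1 h. That is a smaller share than the 0.268% of all peaks, so the count of higher calls showed no lean. The median change of the 984 peaks was 0.12, against -0.03 over all peaks. Both 10 h libraries lay above both 1 h libraries in 256 of the 984, where 18.6% of all peaks did, and below in 138, where 23.4% of all did. The change was negative in 39.9% of them, against 52.6% of all.

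Spred2, which codes for a membrane protein that restrains MAP kinase signalling, had the most certain fall. An intronic peak 24.9 kb from its start site (chr11:19979271-19979668) had 164 and 171 scaled counts, which are reads after the LOESS scaling, at BDNF 1 h, 45.0 and 28.7 after 6 h, then 41.3 and 35.5 after 10 h, while the 6 controls ran from 1.16 to 14.5 with a median of 5.24. Every BDNF library stood above every control, and the 1 h libraries stood far above the rest. The log2 fold change from 1 h to 10 h was -2.13 (SE 0.35, edgeR adjusted p = 0.000148). Against controls it was 4.85 at 1 h and still 2.72 at 10 h, so the peak kept part of its opening.

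Nptx2 codes for a secreted pentraxin that gathers AMPA receptors at synapses. A peak in intergenic sequence 2.72 kb from its start site (chr5:144543044-144543324) had 63.5 and 42.4 scaled counts at 1 h, 16.1 and 25.1 after 6 h, then 20.3 and 8.23 after 10 h, with controls from 2.46 to 12.4. The 10 h libraries were split, 1 within and 1 above the range of the controls. The log2 fold change from 1 h to 10 h was -1.93 (SE 0.53, edgeR adjusted p = 0.0639).

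At the immediate early transcription factors the falls were smaller. A peak 2.05 kb from the start site of Egr3 (chr14:70074494-70075820) had 215 and 225 scaled counts at 1 h, 141 and 145 after 6 h, then 128 and 138 after 10 h, with controls from 101 to 133. It was highest at 1 h, both 6 h libraries were still above every control, and at 10 h 1 library lay within the controls and 1 just above them (log2 fold change -0.72, SE 0.19, edgeR adjusted p = 0.0424). The promoter peak of Bhlhe40 (chr6:108659158-108660890), a repressor that also acts in the circadian clock, had 549 and 536 scaled counts at 1 h, 443 and 469 after 6 h, then 369 and 419 after 10 h, with controls from 368 to 446. Both 10 h libraries were within the control range (log2 fold change -0.46, SE 0.12, edgeR adjusted p = 0.0454).

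**Figure D2:**
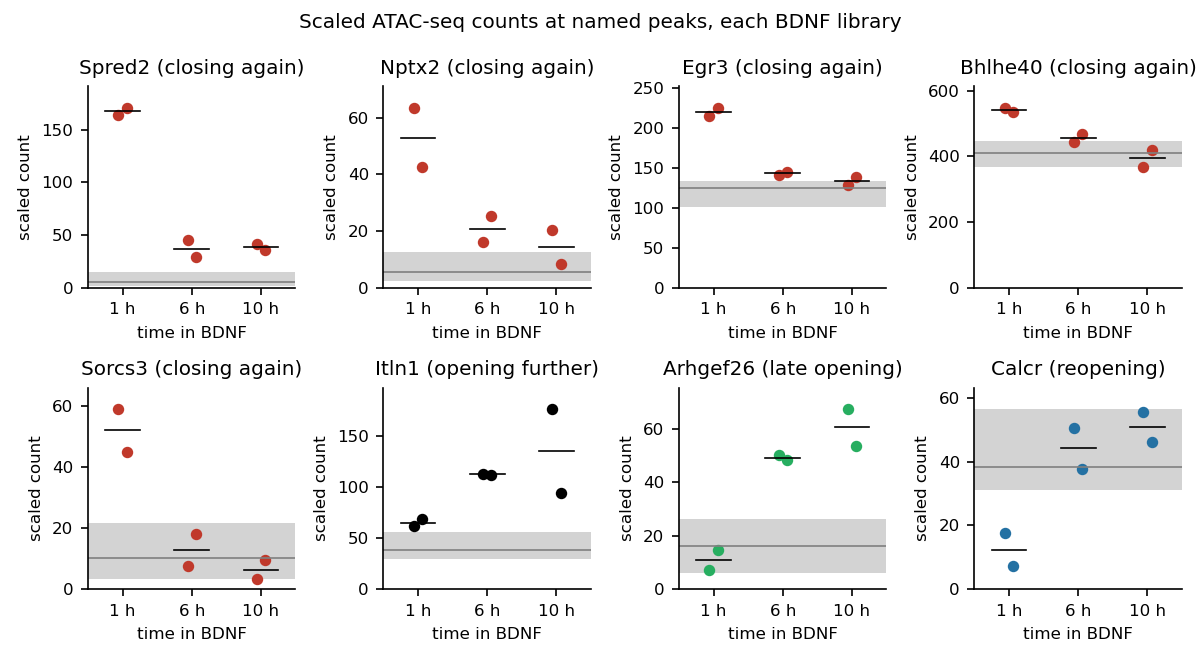
Scaled ATAC-seq counts (vertical axes, from 0) of each BDNF library at 1, 6 and 10 h at 8 named peaks, with the mean of the 2 libraries as a bar, the range of the 6 controls as a grey band and their median as a grey line. The Spred2 peak falls from 164 and 171 to 41.3 and 35.5 but stays above the band, the Sorcs3 peak falls to 3.16 and 9.47, at or just under its lower part, and the Calcr peak rises from 17.5 and 7.12 back into it.

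The 10 largest falls among called peaks with a mean of at least 30 scaled counts at 1 h all belonged to the peaks closing again. Of the 10, 9 held an AP-1 motif. So did 4732 of the 7040 peaks gained at 1 h and 183 of the 314 closing again. The 10 were picked by their fall, and nothing is read from the 9. The largest fall was in an intron of Dlgap2 (chr8:14651389-14651646), which codes for a scaffold protein of the postsynaptic density. It had 45.3 and 35.3 scaled counts at 1 h, 1.81 and 12.0 after 6 h, then 5.98 and 1.15 after 10 h, with controls from 6.12 to 20.1. Both 10 h libraries lay below every control, although the test against controls did not pass at 10 h (edgeR adjusted p = 0.172). The log2 fold change from 1 h to 10 h was -3.56 (SE 0.73, edgeR adjusted p = 0.00545).

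Sorcs3 codes for a sorting receptor of the Vps10p family, which handles neurotrophin receptors. Its intronic peak (chr19:48260748-48261029) had 58.9 and 44.9 scaled counts at 1 h, 7.66 and 18.1 after 6 h, then 3.16 and 9.47 after 10 h, with controls from 3.45 to 21.5. Here the 6 h libraries had already entered the range of the controls (log2 fold change -2.93, SE 0.58, edgeR adjusted p = 0.00383). An intronic peak of Dyrk1a (chr16:94601494-94601838), a protein kinase gene, had 60.6 and 52.6 scaled counts at 1 h, 26.6 and 15.7 after 6 h, then 6.05 and 9.24 after 10 h, with controls from 1.06 to 8.25. It came down in steps, with the 6 h libraries between the other times (log2 fold change -2.84, SE 0.58, edgeR adjusted p = 0.00503).

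An intronic peak of Mvb12b (chr2:33760576-33761003), which codes for a subunit of the ESCRT-I sorting complex, had 47.9 and 65.8 scaled counts at 1 h, 27.7 and 26.5 after 6 h, then 4.73 and 9.46 after 10 h, with controls from 1.47 to 14.6. It followed the same steps as the Dyrk1a peak (log2 fold change -2.94, SE 0.56, edgeR adjusted p = 0.0017). A promoter peak 1.02 kb from the Erc1 start site (chr6:119849084-119849288), a gene that codes for a scaffold of the presynaptic active zone, was the 1 of the 10 with no AP-1 match. It had 38.9 and 36.4 scaled counts at 1 h, 20.3 and 14.4 after 6 h, then 5.65 and 5.52 after 10 h, with controls from 1.13 to 10.7 (log2 fold change -2.73, SE 0.64, edgeR adjusted p = 0.0187). The other 5, whose nearest coding genes were Dip2c, Cited2, Smim15, Arf2 and Sspn at 24.6 to 688 kb, had log2 fold changes from -2.98 to -2.56.

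Some genes were nearest to several peaks closing again. Zmiz1, which codes for a transcriptional coregulator, and Celf4, which codes for an RNA-binding protein, had 4 each. Dlgap2, Lrfn2, a synaptic adhesion gene, and Pde10a, a phosphodiesterase gene, had 3 each. These genes were singled out after their values were seen. How many tested or gained peaks lay nearest to each was not set beside the counts, so nothing is read from them. Over all peaks gained at 1 h, 4.46% closed again.

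The 53 late falls were chosen at 1 h and 10 h. Their median log2 fold change against controls went from 0.27 at 1 h through -0.14 at 6 h to -1.37 at 10 h, and 44 of them were lower than controls at 10 h, a call made for 1.9% of all peaks. The 10 h libraries also chose the class, so nothing is read from that count. Their median was 42.8 scaled counts at 1 h and 14.3 at 10 h. Of the 53, 20 (37.7%) lay in promoters, against 16.2% of the peaks closing again and 27.1% of all peaks.

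The 1 peak that opened further lies 5.33 kb from the start site of Itln1, a gene of a secreted sugar-binding protein, and within the promoter window of another annotated transcript (chr1:171540230-171541008). It had 61.3 and 68.9 scaled counts at 1 h, 113 and 112 after 6 h, then 176 and 94.2 after 10 h, with controls from 29.3 to 55.7. All BDNF libraries were above all controls, but at 10 h library B was below both 6 h libraries (log2 fold change 1.02, SE 0.27, edgeR adjusted p = 0.0498). Under KCl the same peak also rose from 1 h to 10 h, with a log2 fold change of 1.15 (SE 0.28, edgeR adjusted p = 0.0279). The call was lost with offsets that also follow GC content (log2 fold change 0.80, edgeR adjusted p = 0.172).

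Among the late opening peaks with a mean of at least 30 scaled counts at 10 h, the one nearest to Arhgef26, a gene of a guanine nucleotide exchange factor, rose most (chr3:62282237-62282741, intergenic, 55.9 kb from the start site). It had 7.32 and 14.8 scaled counts at 1 h, 50.2 and 48.3 after 6 h, then 67.5 and 53.8 after 10 h, with controls from 5.85 to 26.4. The 1 h libraries were within the control range and both later times were above it (log2 fold change 2.40, SE 0.46, edgeR adjusted p = 0.00204). At KCl 10 h against controls the log2 fold change there was 0.05. For the 38 late opening peaks together the median log2 fold change against controls went from -0.40 at 1 h through 0.13 at 6 h to 0.92 at 10 h, and 22 of them were gained at 10 h, a call made for 7.46% of all peaks. Here too the 10 h libraries chose the class, and nothing is read from the count. The late opening peaks nearest to Mon1b and Ythdf3, 295 and 738 kb away, had log2 fold changes of 2.04 and 1.92 from 1 h to 10 h. At 10 h the Mon1b peak did not pass the test against controls (log2 fold change 1.00, edgeR adjusted p = 0.162). The Ythdf3 peak did (1.17, edgeR adjusted p = 0.0489).

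Reopening peaks returned to about the control level. Their median log2 fold change against controls went from -1.10 at 1 h through -0.21 at 6 h to 0.29 at 10 h, and 1 of the 112 was gained at 10 h. The intergenic peak nearest to Calcr (chr6:3860985-3861398), the calcitonin receptor gene 96.5 kb away, had 17.5 and 7.12 scaled counts at 1 h, 50.8 and 37.8 after 6 h, then 55.8 and 46.4 after 10 h, with controls from 31.1 to 56.6. Only the 1 h libraries lay outside the controls (log2 fold change 2.08, SE 0.43, edgeR adjusted p = 0.00503). An intronic peak of Armh4 (chr14:49766661-49767027) had 7.37 and 4.27 scaled counts at 1 h, 17.5 and 29.2 after 6 h, then 43.8 and 17.0 after 10 h, with controls from 19.2 to 49.3 (log2 fold change 2.35, SE 0.53, edgeR adjusted p = 0.0143). Its 10 h library B was still below every control. The other 5 reopening peaks among the 10 largest rises, nearest to Fat4, Hnf4g, G6pd2, Diaph3 and Cldn34c4, had log2 fold changes from 1.88 to 2.17, and 4 of the 5 lay 317 kb or more from the nearest coding start site.

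Peaks that rose were low in GC and peaks that fell were not. The median GC content of the central 300 bases was 40.7% in reopening and 39.5% in late opening peaks, 51.7% in peaks closing again and 53.7% in late falls, against 48.7% over all peaks. In the lowest of 5 equal classes of GC content, 85 were higher and 27 lower at 10 h, and the median log2 change of that class was 0.13 under BDNF, 0.17 between control 1 h and control 10 h, and 0.05 under KCl. The controls moved with GC content in the same direction as BDNF did. With offsets that follow GC content in each library, an alternative added after seeing the data, 358 peaks were lower and 92 higher. Of the named classes, 266 of 314 peaks closing again, 37 of 53 late falls, 59 of 112 reopening and 18 of 38 late opening peaks were then also called.

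The 6 h libraries did not enter the 2 comparisons that define the classes. In the peaks closing again the median log2 fold change was -0.93 from 1 h to 6 h and -0.50 from 6 h to 10 h. Among the peaks closing again, both 6 h libraries lay below both 1 h libraries in 289 of 314 (92.0%, against 21.4% of all peaks), and both 10 h libraries lay below both 6 h libraries in 199 (63.4%, against 19.1%). The median log2 fold changes of these peaks against the shared controls were 1.91 at 1 h, 0.91 at 6 h and 0.38 at 10 h, and 179 of them were gained at 6 h and 81 at 10 h. In the reopening peaks both 6 h libraries lay above both 1 h libraries in 100 of 112 (89.3%, against 19.0%). In the late falls both 6 h libraries lay below both 1 h libraries in 34 of 53 (64.2%, against 21.4%). Both 10 h libraries lay below both 6 h libraries in 48 (90.6%, against 19.1%). Low 10 h values chose these peaks, so no timing is read from the shares. The 1 h and 10 h values that chose a class also enter these comparisons with 6 h, so the shares are descriptions. In a comparison added after seeing the data, edgeR found that 68 peaks were lower at 6 h than at 1 h (0.121%) and 16 higher (0.0284%), of which 49 were closing again and 6 reopening. Between 10 h and 6 h, 0 peaks were called (0.0%) with edgeR and 0 with DESeq2, where 3128 and 2696 peaks had an unadjusted p below 0.05.

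**Figure D3:**
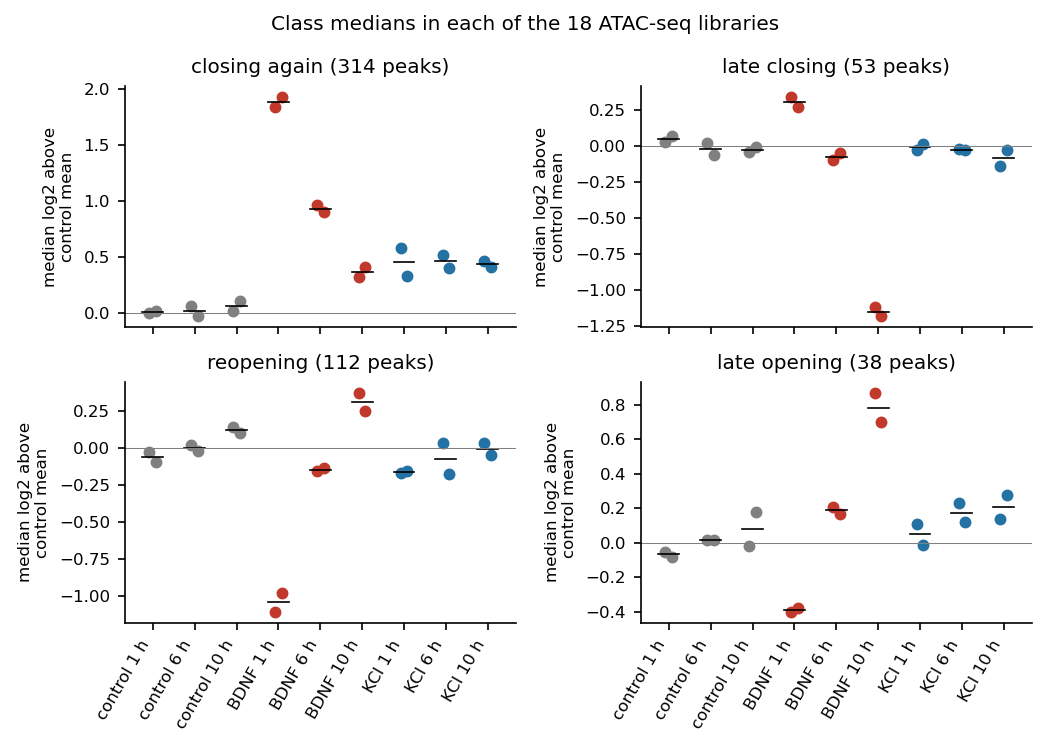
Median over the peaks of a class of log2(scaled count + 1) above the mean of the 6 controls (vertical axes), for each of the 18 ATAC-seq libraries (2 points per group, with their mean as a bar; grey controls, red BDNF, blue KCl). The peaks closing again stand at 1.84 and 1.93 at BDNF 1 h, 0.96 and 0.90 after 6 h, then 0.32 and 0.41 after 10 h, while the KCl libraries stay between 0.33 and 0.58.

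Under KCl the peaks closing again showed no common direction, and the reopening peaks leaned upward. Of the 314 peaks closing again, 152 (48.4%) had a negative log2 fold change from KCl 1 h to KCl 10 h. So did 50.4% of all peaks and 33.7% of all peaks gained at BDNF 1 h. Of the 112 reopening peaks, 41 (36.6%) did, against 50.7% of all peaks closing at BDNF 1 h. The median change was 0.02 in the peaks closing again, against 0.26 in all peaks gained at BDNF 1 h. From KCl 1 h to KCl 10 h the median was 0.16 in the reopening peaks, against -0.01 in all peaks closing at BDNF 1 h. In that comparison 339 peaks of all were lower (0.601%) and 592 higher (1.05%), of which 2 and 6 were peaks closing again and 0 and 3 were reopening. The peaks closing again stood at a median of 0.43 above controls at KCl 1 h and 0.38 at KCl 10 h. The difference between the change under BDNF and that under KCl was tested in the same fit. It was negative in 436 peaks (0.773%) and positive in 135 (0.239%), and 98 of the 314 peaks closing again were among the first and 28 of the 112 reopening peaks among the second. That test shares the 4 BDNF libraries with the choice of the classes. These counts rest on single libraries: without KCl 1 h library B, the deepest of all, they were 17 and 5, without KCl 10 h library A 66 and 14, and without 1 of the 4 BDNF libraries 93 to 253 and 25 to 98.

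The controls had 3 to 12 h in both blockers, while 2 h are listed for the stimulated groups. Their change from 1 h to 10 h holds more time in the blockers as well as more time in culture. The 2 cannot be told apart, also where that change is subtracted. With edgeR, 22 peaks were called between control 1 h and control 10 h (0.039%), where 4577 had an unadjusted p below 0.05. Of the 518 peaks called between BDNF 1 h and BDNF 10 h, 0 were called in the controls and 48 had an unadjusted p below 0.05. With so few calls among all peaks, nothing is read from the 0. In the controls the median log2 change was 0.10 in the peaks closing again, against 0.02 over all peaks. In both the reopening and the late opening peaks it was 0.15. The control change was negative in 40.8% of the peaks closing again, 25.9% of the reopening and 39.5% of the late opening peaks, against 48.3% of all. The reopening peaks thus leaned upward in the controls too. When the change of the controls was subtracted from that of BDNF, 60 peaks were lower (0.106%) and 8 higher (0.0142%), 35 and 4 of which were called in the direct comparison. The Spred2 peak (log2 difference -3.27, edgeR adjusted p = 0.0515), the Sorcs3 peak (-4.59, adjusted p = 0.00278) and the peak near Sspn (-3.85, adjusted p = 0.0983) passed this test. Of the 314 peaks closing again, 33 passed it. This test too shares the 4 BDNF libraries with the choice of the peaks.

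The peaks closing again lay mostly within genes. Of the 314, 164 (52.2%) were intronic, 84 (26.8%) intergenic and 51 (16.2%) in promoters, against 42.6%, 42.4% and 10.4% of all peaks gained at 1 h. Their median distance to a coding start site was 19.5 kb, against 41.0 kb for all gained peaks. They were also stronger, with a median of 81.3 scaled counts at 1 h against 38.6 in the gained peaks that were not called lower, and the part of this difference in which peaks were called was not tested. Of the reopening peaks, 62 of 112 (55.4%, exact 95% interval 45.7 to 64.8%) were intergenic, at a median distance of 61.1 kb, against 46.9% and 51.2 kb for all peaks closing at 1 h.

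AP-1 motifs were common in the peaks closing again but not more so than in gained peaks as a whole. Of the 314, 183 (58.3%, exact 95% interval 52.6 to 63.8%) held TGANTCA in the central 300 bases, against 67.6% of the gained peaks not called lower and 16.3% of all peaks. Gained peaks with the motif had a median log2 change from 1 h to 10 h of -0.47 and those without it one of -0.49. In the peaks gained at 6 h, called without the 4 libraries, the median change from 1 h to 10 h was -0.39 with the motif and -0.26 without it. The order therefore depended on the set, and it was not tested. Of the late falls 5 of 53 (9.43%) held the motif. None of the 112 reopening peaks did (exact 95% interval 0 to 3.24%), against 3.23% of all peaks closing at 1 h.

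The homeobox letters TAATTA were found in 34.2% of late opening peaks (13 of 38, exact 95% interval 19.6 to 51.4%) and in 20.5% of reopening peaks (23 of 112), against 12.6% of all peaks. The POU octamer ATGCAAAT was found in 6 of 38 (15.8%) and 10 of 112 (8.93%), against 4.23% of all. Both motifs are rich in A and T, as these peaks are, and the part of base composition in these shares was not tested. The other 11 motifs, with their shares of the peaks closing again, of the reopening peaks and of all peaks, were as follows. The proneural E-box CAGATG was in 30.9%, 33.0% and 25.2%, the NFI half-site CTTGGCA in 8.92%, 9.82% and 11.4%, HIC1 GGGCANCC in 5.73%, 3.57% and 5.21%, and KLF or SP GGGGCGGGG in 4.46%, 3.57% and 5.52%. The RFX X-box GTTGCCATG was in 1.91%, 3.57% and 1.79%, CRE TGACGTCA in 1.27%, 0.0% and 0.999%, and ETS CCGGAAGT in 0.955%, 0.893% and 1.76%. EGR GCGTGGGCG was in 0.955%, 0.893% and 0.433%, CTCF core AGGGGGCGC in 0.318%, 0.0% and 1.07%, MEF2 CTATTTATA in 0.318%, 0.893% and 0.502%, and NBRE AAAGGTCA in 0.318%, 0.893% and 0.601%. The differences between these shares were not tested, several rest on few peaks, and a match to the letters is not a bound site.

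**Figure D4:**
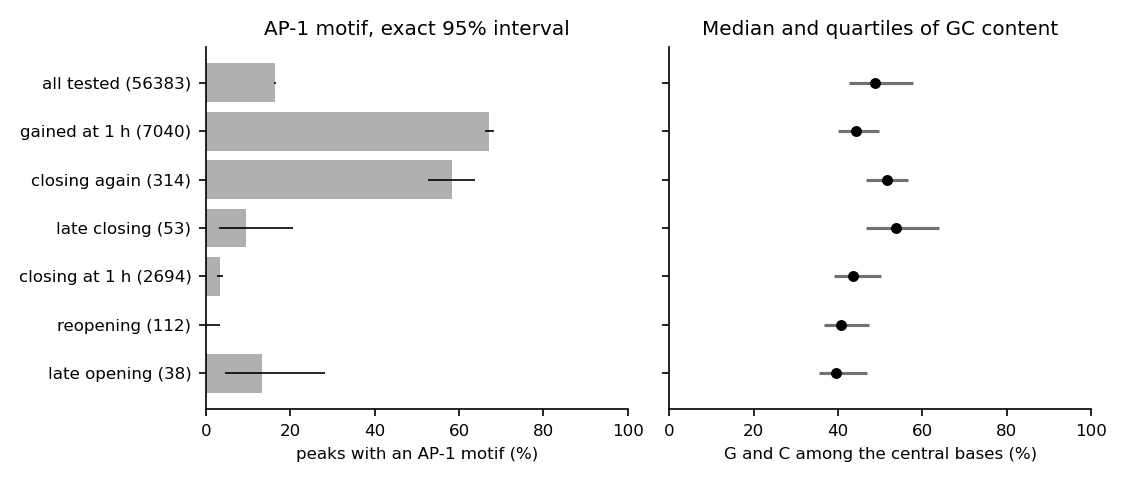
Left, share of peaks whose central 300 bases hold the AP-1 letters, as bars from 0 with exact 95% intervals. Right, median (point) and quartiles (line) of GC content in percent. AP-1 reaches 67.2% in peaks gained at 1 h and 58.3% in those closing again, and 0 of 112 reopening peaks, whose median GC content is 40.7%, hold it.

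RNA from other libraries of the same groups was read for the genes of the pathway. Of 16209 genes tested with limma on the deposited normalised counts, 2836 were lower at 10 h than at 1 h (17.5%) and 2655 higher (16.4%). Transcripts of the AP-1 family fell together, with 11 of 11 bZIP genes lower. Fos had 1720 and 1740 normalised counts at 1 h and 119 and 113 at 10 h, with controls from 25.1 to 43.3 (log2 fold change -3.89, SE 0.18, limma adjusted p = 3.24e-12). Both 10 h libraries were still above every control, while Fosb (log2 fold change -6.60) was back within its own control range.

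Of the 34 peaks within 50 kb of the bZIP genes, 0 passed the edgeR test, 6 had an unadjusted p below 0.05, DESeq2 called 1 and limma 0. The Egr and Nab genes fell in 6 of 6 cases, and 1 of their 16 peaks, the Egr3 peak, was lower. Egr3 RNA had 967 and 1060 normalised counts at 1 h and 44.1 and 53.7 at 10 h (log2 fold change -4.35, limma adjusted p = 1.07e-10), so the transcript fell far more than the peak beside it. Of the other activity-regulated factors 11 of 12 were lower, among them Bhlhe40 (log2 fold change -0.80), and 1 of 42 peaks.

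Synaptic effector genes were lower in 9 of 12 cases and higher in 2, Gria1 and Dlg4, which code for an AMPA receptor subunit and for PSD-95. Nptx2 RNA had 1790 and 1900 normalised counts at 1 h and 562 and 531 at 10 h (log2 fold change -1.75, limma adjusted p = 5.07e-08), and its peak was the 1 of 33 that was lower. Arc, which codes for a protein that drives AMPA receptor uptake, fell by 3.38 on the log2 scale, with no called peak.

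The feedback genes on receptor kinases and MAP kinases were divided. Of 14, 7 were lower, 1 (Spred3) was higher and 6 did not pass the test, and 1 of their 32 peaks was lower. Spred2 RNA had 2640 and 2760 normalised counts at 1 h and 1380 and 1230 at 10 h, with controls from 765 to 866 (log2 fold change -1.05, limma adjusted p = 1.99e-08). Like its peak, it fell but stayed above every control. Dusp6, a phosphatase of ERK, had 1730 and 1630 at 1 h and 1530 and 1640 at 10 h, far above its controls of 201 to 288.

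Secreted peptides and growth factors were lower in 3 of 14 cases and higher in 4, Npy, Cck, Scg2 and Crh. Crh, the corticotropin-releasing hormone gene, had 1.52 and 5.34 normalised counts at 1 h and 32.8 and 29.5 at 10 h (log2 fold change 3.01 on the log2(value + 1) scale, limma adjusted p = 0.0338). Of 38 peaks near these genes 0 passed the edgeR test, 3 had an unadjusted p below 0.05 and neither DESeq2 nor limma called any. Among the neurotrophin receptor genes, Ntrk2, Sort1 and Ngfr were lower and Sorcs3 was higher, with 239 and 230 normalised counts at 1 h and 523 and 424 at 10 h (log2 fold change 1.00, limma adjusted p = 1.07e-05). The intronic peak of Sorcs3, 54.9 kb from its start site, went the other way. Of the 46 peaks within 50 kb of these genes 0 passed the edgeR test, 5 had an unadjusted p below 0.05 and neither DESeq2 nor limma called any.

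Over the 77 genes of the 7 lists, 241 peaks lay within 50 kb, of which 50 had been gained at 1 h. From 1 h to 10 h, 47 of these 50 had a negative log2 fold change, with a median of -0.51, and 4 were called lower (8.0%). Over all 7040 peaks gained at 1 h the median was -0.48 and 4.46% were called lower. At 10 h 13 of the 50 were gained, against 51.1% of all peaks gained at 1 h.

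**Figure D5:**
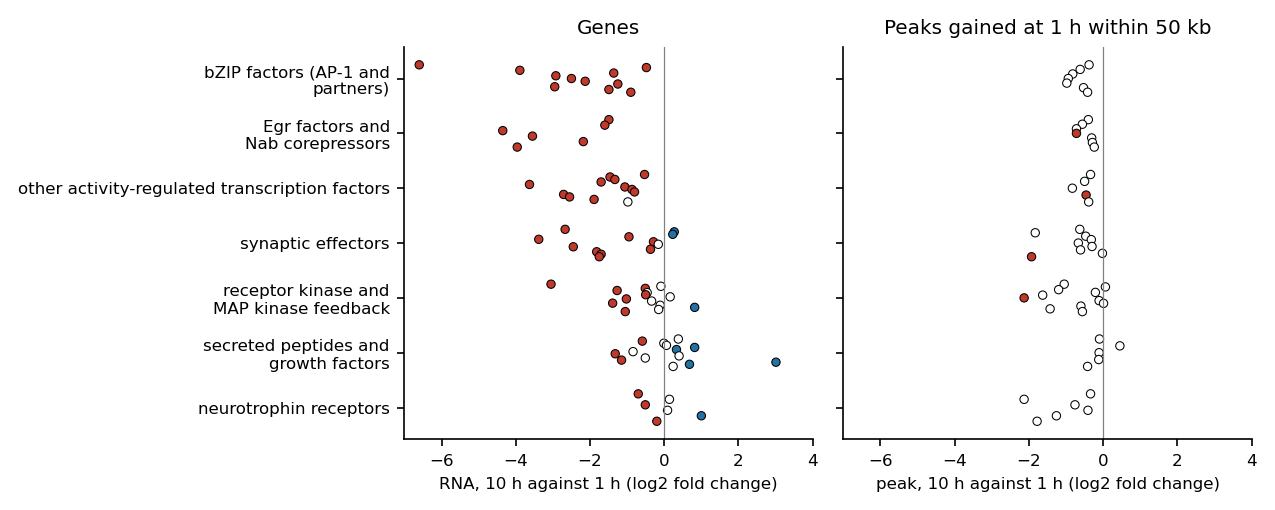
Log2 fold change from BDNF 1 h to BDNF 10 h of the RNA of each gene in 7 lists (left) and of the peaks gained at 1 h within 50 kb of those genes (right), 1 point per gene or peak, on equal axes. Red points were called lower, blue higher, white not called. Fosb RNA stands at -6.60 and the Spred2 peak at -2.13, and 4 of the 50 peaks are red.

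Genes nearest to peaks closing again, within 50 kb, had RNA lower at 10 h in 75 of 188 tested cases (39.9%) and higher in 24 (12.8%), against 17.5% and 16.4% of all genes. Genes nearest to gained peaks that were not called lower, and to no peak closing again, were lower in 533 of 2080 (25.6%) and higher in 360 (17.3%). The median log2 fold changes of the 2 groups were -0.18 and -0.07. For reopening peaks the counts were 10 lower and 10 higher of 40 genes, and for late falls 12 and 9 of 36. Nearest genes are assigned by distance only. Among the 10 largest falls, Dyrk1a RNA was lower (log2 fold change -0.60) as was Cited2 (-0.49), Sorcs3, Smim15 and Erc1 were higher (1.00, 0.54 and 0.31), Arf2 was lower at a limma adjusted p of 0.0775 (-0.18), and Dlgap2, Dip2c, Mvb12b and Sspn did not pass the test, with values from 0.06 to 0.17.

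The cultures held cells other than neurons. Summed over their markers in normalised counts, cortical neuron genes stood at 45000 to 46500 at BDNF 1 h and 46000 to 48300 at 10 h, with Tubb3 lower and Neurod6 and Tbr1 higher. Astrocyte genes summed to 12700 to 13600 at 1 h and 10200 to 10600 at 10 h, against 10600 to 15200 in the controls, with 3 of 5 tested lower, and genes of radial glia and dividing cells to 10400 to 10600 and 8640 to 8840, against 8840 to 12200 in the controls, with 2 of 6 lower. Interneuron genes summed to 15000 to 15500 and 13500 to 14400 with 1 of 6 lower, and oligodendrocyte lineage genes to 6390 to 6680 and 5670 to 6020 with 3 of 6 lower and 1 higher. Microglia genes were low, at 79.1 to 94.6 and 81.7 to 82.5, and endothelial and mural genes at 201 to 214 and 133 to 155, with 2 of 2 lower. Of all genes tested, 17.5% were lower and 16.4% higher. In bulk samples fewer cells of a type and less RNA or open chromatin per cell cannot be told apart, and the part of these cells in the peak changes was not tested. Of the 149 peaks near the markers of all 7 lists, edgeR called 2, both lower and both in introns of Map2, a gene of the neuronal cytoskeleton. DESeq2 and limma called 0 of the 149. Over all peaks edgeR called 0.651% lower and 0.268% higher. Near the markers of the other 6 lists 0 peaks passed the edgeR test, 7 had an unadjusted p below 0.05 and neither DESeq2 nor limma called any.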

How the data were processed

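ATAC-seq counts were deposited as a table of whole reads per peak, with 58177 peaks called by the authors over all libraries. The sources name Trimmomatic, Bowtie2, MACS2 and DiffBind on mm10. RNA was deposited as a signal, counts that the authors normalised by DESeq2 size factors after TopHat2 alignment. Whole reads were recovered from it for 100% of values at a tolerance of 0.01, with 8508452 to 36699187 reads per library.

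Peaks with a mean of at least 10 reads were tested (56383). Offsets came from a LOESS curve per library against mean level (span 0.3), and edgeR 4.0.16 (R 4.3.3) fitted quasi-likelihood models with 7 levels, the 6 controls pooled into 1. The threshold was a Benjamini-Hochberg adjusted p below 0.1. RNA was tested with limma 3.58.1 on log2(value + 1) for 16209 genes with a mean of at least 10. edgeR on the recovered reads called 2846 lower and 2691 higher. DESeq2 1.42.0 was an alternative. Both scripts were tested on simulated data. pandas 2.3.3, pysam 0.24.0 and scipy 1.17.1 were used for tables, sequences and exact intervals, which cover counting error only.

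A promoter ran from 1000 bases before to 100 after any annotated transcript start, non-coding ones included, and nearest genes were protein-coding. Named peaks were the 10 called peaks of largest change in each direction with libraries that did not overlap and a mean of at least 30 in the higher group, those opening further, and the called peak of lowest p within 50 kb of each gene of the lists. Members and lists were chosen with earlier results of these data known. GC offsets and the comparisons with 6 h were added after seeing the data. The result of 1 marker gene is not reported here.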

Additional observations from a re-analysis of the deposited data

Results flagged for a closer look

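At several named peaks the change from 1 h to 10 h under BDNF differed from that under KCl in the test of the difference itself (edgeR, adjusted p below 0.1). The BDNF change minus the KCl change, on the log2 scale, was -4.28 at the peak near Arf2, -4.08 at Sorcs3, -2.73 at Mvb12b, -2.63 at Smim15 and -1.94 at Spred2. It was 3.34 near Fat4, 2.79 at Diaph3 and 2.07 near Calcr. Against the change of the controls the difference was -4.59 at Sorcs3, -3.85 near Sspn and -3.27 at Spred2. No other named peak passed either test. The named peaks were chosen by the same 4 BDNF libraries that enter both tests, so these differences are descriptions. Over all peaks the difference from KCl was negative in 436 and positive in 135, and that from the controls negative in 60 and positive in 8.

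In 2 of the 25 named peaks 1 of the 6 controls stood apart from the others, by a gap of 0.707 of the whole range of the controls at the peak in Dip2c and 0.635 at the peak in Spred2. Chance flags about 1 in 20 such groups.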

How the results depend on the processing

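Each count and median named here, and each named peak, kept its direction under the alternatives run, while 2 of the 314 peaks closing again turned when the control change was subtracted. Named peaks were chosen with libraries that did not overlap, so leaving out 1 library could hardly turn them. Of the 25 named peaks, 19 were also called with GC offsets and 3 with the control change subtracted. The 367 peaks lower and 151 higher at BDNF 10 h became 198 and 99 with DESeq2, 197 and 94 with limma on log2 values, 172 and 63 after thinning to equal depth, 44 and 7 at an adjusted p below 0.01, and 60 and 8 with the control change subtracted. With GC offsets, added after seeing the data, 92 were higher. Leaving out 1 library gave 31 to 152 lower and 10 to 100 higher. The causes were not tested, apart from fewer libraries or reads where the alternative removes them. With 1 library left out, the counts for BDNF minus control change were 22 to 34 lower and 1 to 7 higher, for the control change 0 to 3 lower and 0 to 4 higher, for BDNF minus KCl change 17 to 491 lower and 5 to 115 higher, and for the KCl change 4 to 131 lower and 12 to 389 higher. TMM gave 562 peaks lower under KCl, against 339. At an adjusted p below 0.01, 1469 genes were lower and 1102 higher, and 1894 to 2212 lower and 1673 to 1897 higher with 1 library left out. The median change with GC offsets was -0.54 in peaks gained at 1 h and -0.45 in those gained at 6 h. The BDNF 10 h libraries had fewer reads than the BDNF 1 h libraries. No paired analysis was possible for the peaks because the ATAC-seq columns carry no replicate number. The RNA columns carry a letter that the labels do not explain. Used as a replicate block, added after seeing the data, it gave 2998 genes lower and 2738 higher. The differences between letters A and B correlated across genes with r = -0.0369 between BDNF 1 h and 10 h. Over 36 pairs of groups the median r was 0.0649, with a range from -0.315 to 0.418, and 25 were positive. What the letter stands for was not settled by these values.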
